A study of Mus musculus with 6 samples.

Results

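The liver X receptor (LXR) genes described here are 9 genes of sterol sensing and sterol export, read from the single comparison of differentiated with undifferentiated CAD cells. They were found by their symbol in the comparison's gene table, where all 9 had a row among 26436 genes and all 9 were among the 20285 genes with an adjusted p-value. CAD is a mouse catecholaminergic cell line of central nervous system origin, per the labels. The 3 differentiated libraries came from cells held for 5 days in DMEM/F12 without serum and with insulin, transferrin and selenium, and the 3 undifferentiated libraries from cells grown in DMEM/F12 plus fetal bovine serum. The labels give no genetic change for either group, and every library comes from 1 cell line. Loss of serum, the added supplement and differentiation go together and cannot be told apart, and serum is also a source of lipoprotein cholesterol. Nothing in the labels ties a library to its own culture, so the errors describe the spread among these 6 libraries and may be technical. In bulk RNA, fewer cells with a transcript and less of it per cell cannot be told apart.

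LXRs are nuclear receptors that bind oxysterols and other sterol intermediates and act as heterodimers with retinoid X receptors. The ligand-bound heterodimer switches on genes that move cholesterol out of the cell, load it onto lipoproteins and reshape membrane phospholipids, and it also raises fatty acid synthesis through Srebf1. In the brain, where lipoprotein particles are made locally, this pathway is best known from astrocytes and microglia that supply and clear cholesterol. The 9 genes are the receptors Nr1h2 (LXR beta) and Nr1h3 (LXR alpha), the sterol exporters Abca1 and Abcg1, the lipid carriers Apoe and Pltp, the phospholipid acyltransferase Lpcat3, the ubiquitin ligase Mylip and the transcription factor gene Srebf1.

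LXR and retinoid X receptor pairs bind direct repeats of a hexamer separated by 4 bases. Promoter windows from RefSeq (GRCm38.p6), each from 250 bases before to 50 bases after a start site, were given for 8 of the 9 genes, in 13 windows, and are shown for the 2 genes in which a repeat was found. Both strands were searched for GGTCANNNNNGGTCA, the repeat with both hexamers in consensus, and for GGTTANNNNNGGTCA, in which 1 hexamer carries a T. Any first base of the hexamers was allowed in both, and the letters of the second were chosen after the windows of these genes had been read. Capitals mark the repeat, which lies on the opposite strand to the gene in both windows. The Abca1 window is chr4:53159846-53160145 and the Srebf1 window, at the start site farthest downstream of the 3 listed, is chr11:60210422-60210721, both on the minus strand.
Abca1: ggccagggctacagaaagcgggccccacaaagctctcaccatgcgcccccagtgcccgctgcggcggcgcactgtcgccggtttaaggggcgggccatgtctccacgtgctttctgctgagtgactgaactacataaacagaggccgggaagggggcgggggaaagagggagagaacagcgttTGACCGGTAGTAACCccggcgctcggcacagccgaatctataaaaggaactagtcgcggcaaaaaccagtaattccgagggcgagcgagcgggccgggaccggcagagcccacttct
Srebf1: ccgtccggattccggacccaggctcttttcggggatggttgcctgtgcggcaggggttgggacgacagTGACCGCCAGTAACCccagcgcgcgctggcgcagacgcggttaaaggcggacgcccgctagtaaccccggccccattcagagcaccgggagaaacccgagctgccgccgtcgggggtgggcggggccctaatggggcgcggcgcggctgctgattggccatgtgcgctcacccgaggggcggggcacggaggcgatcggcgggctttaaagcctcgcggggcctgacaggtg

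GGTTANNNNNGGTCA was present in 16 of 32851 promoter windows (0.0487%), and GGTCANNNNNGGTCA in 25 (0.0761%) but in no window of the 9 genes. The Abca1 repeat lay 53 to 67 bases before the start site and the Srebf1 repeat 168 to 182 bases before it. Of the 13 genes that hold the variant repeat, 7 were tested, and their elements are shown on the strand that reads as the searched letters, with the fixed letters in capitals.
Abca1: GGTTActaccGGTCA
Fasn: GGTTActaccGGTCA
Srebf1: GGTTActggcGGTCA
Acsl3: GGTTActatgGGTCA
Prrg4: GGTTAccttcGGTCA
Tmem150c: GGTTAcaacaGGTCA
Tmco4: GGTTAttgtaGGTCA
Fasn, which encodes fatty acid synthase, held the same 15 bases as Abca1, at 211 to 225 bases before its start. Of these 7 genes, 3 were called higher in differentiated cells and 0 lower, at the authors' Wald adjusted p under 0.05, and 0 were lower at an unadjusted p under 0.05. Of 11350 tested genes with a promoter window, 22.5% were called higher and 18.7% lower. The looser GGTNANNNNNGGTNA, which takes in both repeats, was present in windows of 69 tested genes, of which 15 were called higher (21.7%) and 9 lower. The third called gene was Tmem150c, whose log2 fold change in the authors' deposited table was 0.43 (SE 0.13), while Fasn stood at 0.21 (SE 0.16) and Acsl3, an acyl-CoA synthetase gene, at 0.30 (SE 0.18). Without Abca1 and Srebf1, which were chosen with their fold changes known, 1 of 5 was called higher. Of the 7 tested genes with the consensus repeat, 0 were called higher and 1 lower, which was Chchd1 at -0.45 (SE 0.12) in the authors' deposited table, while 1 was higher and 2 were lower at an unadjusted p under 0.05. A match of letters is a description of the window, and binding was not measured.

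**Figure D1:**
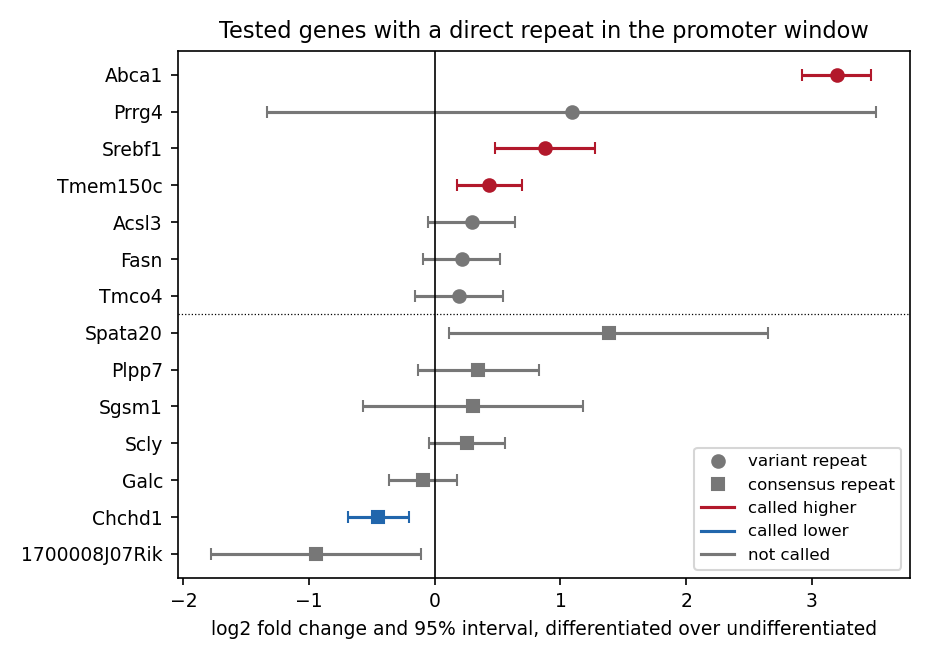
Log2 fold change, differentiated over undifferentiated, on the x axis for each tested gene with a repeat in its promoter window, on the y axis. Circles are the 7 genes with the variant repeat, squares the 7 with the consensus repeat, bars are 95% intervals, and color gives the call. Abca1 stands at 3.20 and the other 6 variant-repeat genes between 0.19 and 1.09, the last being Prrg4 (SE 1.24). The consensus-repeat genes lie on both sides of 0. The variant letters were chosen after windows had been read, and Abca1 and Srebf1 with their fold changes known. Without Abca1 and Srebf1, 1 of 5 variant-repeat genes was called higher (20%), against 22.5% of tested genes with a promoter window. The plot therefore cannot decide whether the repeats differ.

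Differentiated CAD cells had more transcript of the sterol exporters, of Pltp, of Lpcat3, of Srebf1 and, by a small margin, of the receptor gene Nr1h2, whereas Apoe, Mylip and Nr1h3 were not called. Of the 9 genes, 6 were called higher and 0 lower at the authors' Wald adjusted p under 0.05. At an unadjusted p under 0.05, 6 were higher and 1 was lower, which was Nr1h3. Over all genes tested, 18.2% were called higher, 17.7% lower and 35.9% in either direction. The 9 genes were chosen by pathway with their fold changes in this same comparison known, so the values below are a description, and nothing is read from the count. The median log2 fold change of the 9 was 0.82, against 0.01 over all genes tested.

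**Figure D2:**
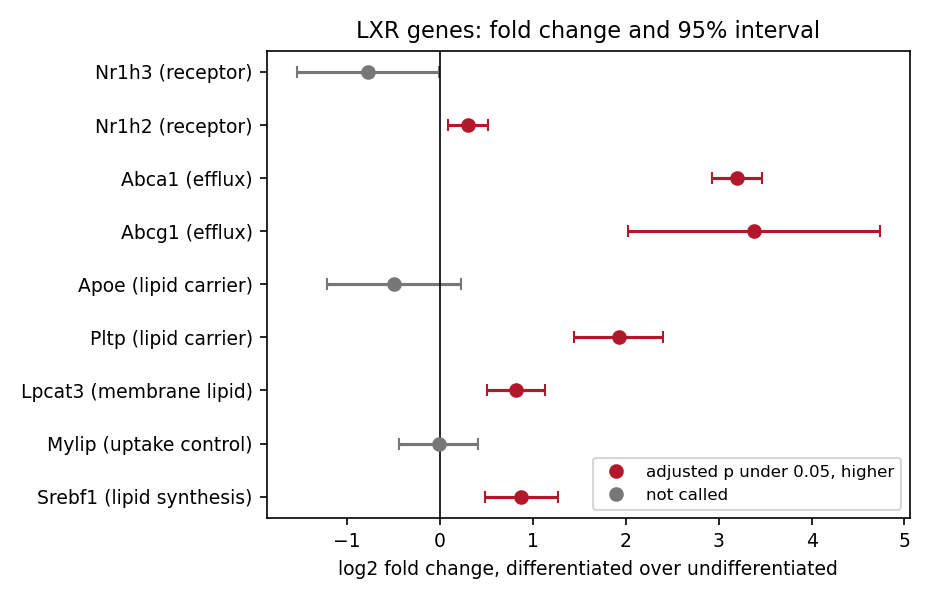
Log2 fold change, differentiated over undifferentiated, on the x axis for the 9 genes on the y axis, ordered by role. Points are the authors' estimates, bars 95% intervals from their standard errors, red marks genes called higher and grey genes not called. The intervals of Abca1 and Abcg1 overlap each other and lie above those of Lpcat3, Srebf1 and Nr1h2.

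No single-library values were analysed here. The authors' table holds a mean normalized count per gene, a fold change and its standard error. Group levels named as implied were computed from that mean and the fold change, taking the mean as that of these 6 libraries with 3 in each group. They carry no error of their own, and the error of each comparison is that of the fold change. Fold changes below are given with a 95% interval.

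The receptors differed in level and in sign. Nr1h2, the broadly expressed LXR beta, had an implied mean of 1145 normalized counts in differentiated cells, against 931 in undifferentiated cells. That was 1.23-fold (1.06 to 1.43) higher in differentiated cells, the smallest of the 6 called changes. Nr1h3, the LXR alpha of liver, macrophage and fat, was far less abundant, with an implied mean of 26.0 normalized counts in differentiated cells and 44.8 in undifferentiated cells. Its fold was 0.582 (0.342 to 0.989), with an unadjusted Wald p of 0.0453 and an adjusted p of 0.107 in the authors' deposited table. Per kilobase of annotated exon, Nr1h2 stood 33.0 times above Nr1h3 in differentiated cells and 15.6 times above it in undifferentiated cells, by implied levels. By transcript level, then, most LXR transcript was Nr1h2 in both groups.

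Abca1 had the largest change of the 6 genes whose mean reached 100. It encodes the transporter that hands cholesterol and phospholipid to lipid-poor apolipoproteins. Its implied mean was 1631 normalized counts in differentiated cells, against 178 in undifferentiated cells, a difference of 9.17-fold (7.59 to 11.1). In the authors' deposited table its log2 fold change was 3.20 (SE 0.14), which is the 22nd highest of 13197 tested genes with a mean of at least 100. Its standard error was 1.14 times the median of the 200 genes nearest to it in mean.

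Abcg1, whose product moves sterol toward lipoprotein particles that already carry lipid, changed about as much but at a far lower level. Its implied mean was 29.0 normalized counts in differentiated cells and 2.79 in undifferentiated cells. The fold was 10.4 (4.05 to 26.7), so its size is poorly fixed by so few counts. In the authors' deposited table its log2 fold change was 3.38 (SE 0.69), and the interval of Abca1 lay wholly within that of Abcg1. Per kilobase of exon, Abca1 stood 39.6 times above Abcg1 in differentiated cells and 44.9 times above it in undifferentiated cells, by implied levels.

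The lipid carriers parted. Pltp, the phospholipid transfer protein that remodels lipoproteins, had an implied mean of 580.4 normalized counts in differentiated cells and 153 in undifferentiated cells, which is 3.79-fold (2.71 to 5.30). Apoe, the main apolipoprotein of the brain, had an implied mean of 40.8 normalized counts in differentiated cells and 57.5 in undifferentiated cells. Its fold was 0.710 (0.430 to 1.17), not called, and its interval did not overlap that of Pltp. Per kilobase of exon, implied Pltp was 11.9 times Apoe in differentiated cells and 2.22 times Apoe in undifferentiated cells.

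Lpcat3 and Srebf1, the genes of lipid composition and synthesis, were the 2 most abundant of the 9 and changed by similar folds. Lpcat3 places polyunsaturated fatty acids into membrane phospholipids. Its implied mean was 3525 normalized counts in differentiated cells and 2003 in undifferentiated cells, a fold of 1.76 (1.42 to 2.18). Srebf1 encodes sterol regulatory element-binding proteins that drive fatty acid synthesis genes, and it is itself an LXR target. Its implied mean was 20513 normalized counts in differentiated cells and 11184 in undifferentiated cells, a fold of 1.83 (1.39 to 2.41). The gene-level value sums transcripts from its alternative start sites, so the start beside the repeat shown above was not measured separately.

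Mylip, also called IDOL, is an LXR target that marks lipoprotein receptors for degradation. It had an implied mean of 357 normalized counts in differentiated cells and 361 in undifferentiated cells. Its fold was 0.990 (0.737 to 1.33), an interval that does not reach the folds of Abca1, Abcg1, Pltp or Lpcat3. Mylip and Pltp had nearly equal means over all libraries in the authors' deposited table, at 359 and 367 normalized counts.

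**Figure D3:**
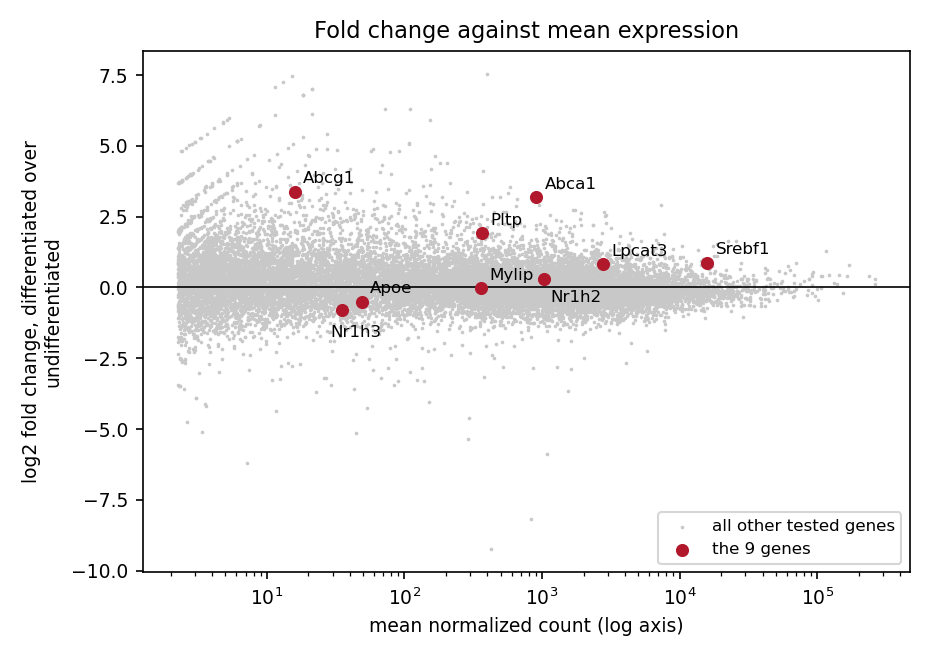
Log2 fold change, differentiated over undifferentiated, on the y axis against the mean normalized count on a log x axis, for all 20285 tested genes, with the 9 genes in red and labelled. Abca1 at 3.20 stands apart from genes of similar mean, Abcg1 lies in the low-count region where large fold changes are common, and Nr1h3 at -0.78 and Apoe at -0.49 lie below 0, with neither called.

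Compared per kilobase of exon, the implied levels ordered the 9 genes differently in each group. In differentiated cells Srebf1 was highest, at 3641 normalized counts per kilobase, followed by Lpcat3 at 1079, Nr1h2 at 341, Pltp at 227, Abca1 at 157, Mylip at 110.5, Apoe at 19.1, Nr1h3 at 10.4 and Abcg1 at 3.98. In undifferentiated cells the order was Srebf1 at 1985, Lpcat3 at 613, Nr1h2 at 278, Mylip at 112, Pltp at 59.8, Apoe at 26.9, Nr1h3 at 17.8, Abca1 at 17.2 and Abcg1 at 0.382. Abca1 was thus 5th in differentiated cells and 8th in undifferentiated cells, where it stood beside Nr1h3. The levels have no error within a group, so whether neighbours in this order differ beyond the spread of libraries was not tested. The exon length counts every annotated exon and can exceed that of the transcripts the cells make.

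**Figure D4:**
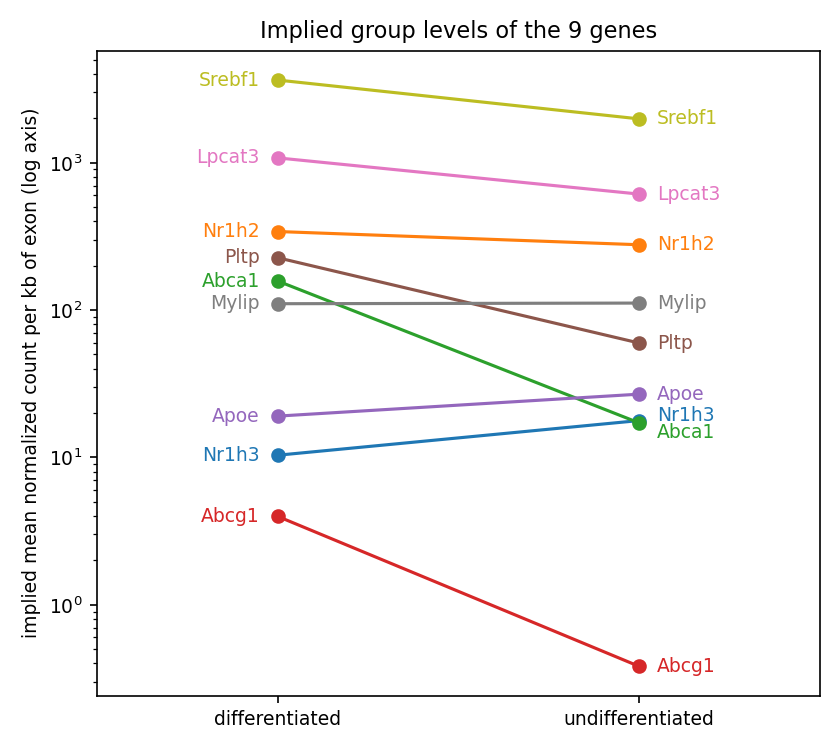
Implied mean normalized count per kilobase of exon, on a log y axis, for the 9 genes in differentiated cells (left) and undifferentiated cells (right), with a line joining each gene. The lines of Abca1, Abcg1 and Pltp are steep, that of Mylip is flat, and those of Apoe and Nr1h3 slope the other way, with neither called.

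Standard errors were wider than usual for genes of the same abundance in 8 of the 9. The median ratio of a gene's standard error to that of the 200 tested genes nearest in mean was 1.29. Srebf1 had the widest at 2.09, followed by Pltp at 1.60, and only Nr1h2 was below 1, at 0.908. The same ratio had a median of 1.88 over 19 genes of sterol regulatory element-binding protein (SREBP) control, 1.61 over 8 other reported LXR targets and 0.935 over 17 LXR partners and coregulators.

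In GRCm38, per GENCODE M21, Abca1 lies on chromosome 4 from 53030787 to 53159895, between Nipsnap3b at 1.09-fold (0.892 to 1.34) and Slc44a1 at 1.07-fold (0.936 to 1.23). Leaving out genes that overlap any of the 9, there were 18 nearest protein-coding genes on either side, of which 14 were tested. Of the 14, 2 were called higher and 3 lower, against 18.2% and 17.7% of all genes tested, with a median log2 fold change of 0.15. Acp2, which starts 50 bases from Nr1h3, was 1.45-fold (1.24 to 1.70) higher, and Pold1, a DNA polymerase gene 766 bases from Nr1h2, was at 0.540-fold (0.473 to 0.616). Apoe is followed by Tomm40, at 0.746-fold (0.619 to 0.899). Pltp, Lpcat3 and Srebf1 share exon bases with genes on the opposite strand, namely 495 with Ctsa, 334 with Emg1 and 109 with Rai1. The libraries were stranded, but the strand setting of the counting is not given in the sources used here, so reads from those bases may not be told apart. Ctsa was at 1.26-fold (1.09 to 1.46), Emg1 at 0.729-fold (0.632 to 0.840) and Rai1 at 0.839-fold (0.735 to 0.959), each called and each smaller in size than the change of the gene it overlaps, and their part in these values was not tested.

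Macrophage and astrocyte markers were looked at beside Abca1 and Abcg1, since both cell types are rich in LXR target transcripts. Of 12 macrophage and microglia markers, 6 had a row, and their implied levels summed to 71.7 normalized counts in differentiated cells and 136 in undifferentiated cells. Tmem119 alone made up 52.2 and 124 of these. Of the 3 tested, 0 were called higher and 1 lower, against 18.2% and 17.7% of all genes tested. The gene called lower was Tmem119, at 0.420-fold (0.296 to 0.596). In the authors' deposited table Csf1r, Tyrobp and Aif1 averaged 1.32, 1.97 and 0.997 normalized counts, and Ptprc, Adgre1, Itgam, Cx3cr1, P2ry12 and Trem2 had no row. Of 10 astrocyte markers, 6 had a row in the authors' deposited table, Gfap and Slc1a3 averaged 4.15 and 4.61 normalized counts, and Aqp4, Gja1, Slc1a2 and Aldh1l1 had no row. The 6 summed to an implied 5841 normalized counts in differentiated cells and 3523 in undifferentiated cells, nearly all from Aldoc, Glul and Fgfr3, which are not limited to astrocytes. Of the 5 tested, Aldoc rose 6.21-fold (1.63 to 23.7) and Fgfr3 1.55-fold (1.18 to 2.03), whereas Glul fell to 0.676-fold (0.569 to 0.803). Of 13 catecholaminergic neuron markers, all were tested, 5 were called higher and 3 lower. That was 38.5% and 23.1%, against 18.2% and 17.7% of all genes tested. Tyrosine hydroxylase (Th) was at 1.27-fold (0.896 to 1.79), not called. The 3 lower, named after their values were seen, were dopamine beta-hydroxylase (Dbh) at 0.0245-fold (0.0106 to 0.0568), Phox2a at 0.548-fold (0.449 to 0.669) and Gata2 at 0.618-fold (0.496 to 0.772). Those higher included Ddc, Chgb, Slc18a1 and Tubb3, at 1.42-fold to 2.02-fold. Whether other cell types have a part in the values of the 9 genes was not tested.

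Few partners of LXR were called. Of 19 listed retinoid X receptors and coregulators, 18 had a row and 17 were tested (median log2 fold change -0.04). Of the 17, 1 was called higher (5.88%) and 2 lower (11.8%), against 18.2% and 17.7% of all genes tested. Rxra, a retinoid X receptor gene, rose, with a log2 fold change of 0.58 and an interval of 1.17-fold to 1.91-fold, and Rxrb was at 1.10-fold (0.897 to 1.34), not called. Sirt1, a deacetylase that acts on LXR, fell to 0.690-fold (0.597 to 0.797), and Hdac3, the deacetylase of the corepressor complex, to 0.828-fold (0.727 to 0.943). The corepressor gene Ncor1 stood at 0.981-fold (0.874 to 1.10), not called.

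Other genes reported as LXR targets were called in 3 cases, each with an interval below that of Abca1. Of 20 listed, 15 had a row and 8 were tested. Of the 8, 3 were called higher (37.5%) and 0 lower, against 18.2% and 17.7% of all genes tested. At an unadjusted p under 0.05 in the authors' Wald test, 0 were lower. The 3 called genes were Scd1 at 3.16-fold (1.43 to 6.98) and Scd2 at 2.45-fold (1.34 to 4.51), both fatty acid desaturases, and the transporter gene Abca7 at 1.59-fold (1.25 to 2.01). Pnpla3 was at 2.65-fold (1.09 to 6.41) and Fasn at 1.16-fold (0.937 to 1.43), both not called. Scd1, Scd2 and Fasn are also known as SREBP targets. Abcg4, the neuronal relative of Abcg1, was at 1.09-fold (0.711 to 1.67), not called.

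Among 18 other ABCA and ABCG transporter genes, 12 had a row and 7 were tested. Of the 7, 3 were called higher and 0 lower, against 18.2% and 17.7% of all genes tested. At an unadjusted p under 0.05 in the authors' Wald test, 0 were again lower. Abca2, a lipid transporter of endosomes and lysosomes, rose 2.49-fold (2.05 to 3.02) and Abca3 1.43-fold (1.25 to 1.65), beside Abca7. None of the 95% intervals of these 3 reached that of Abca1.

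**Figure D5:**
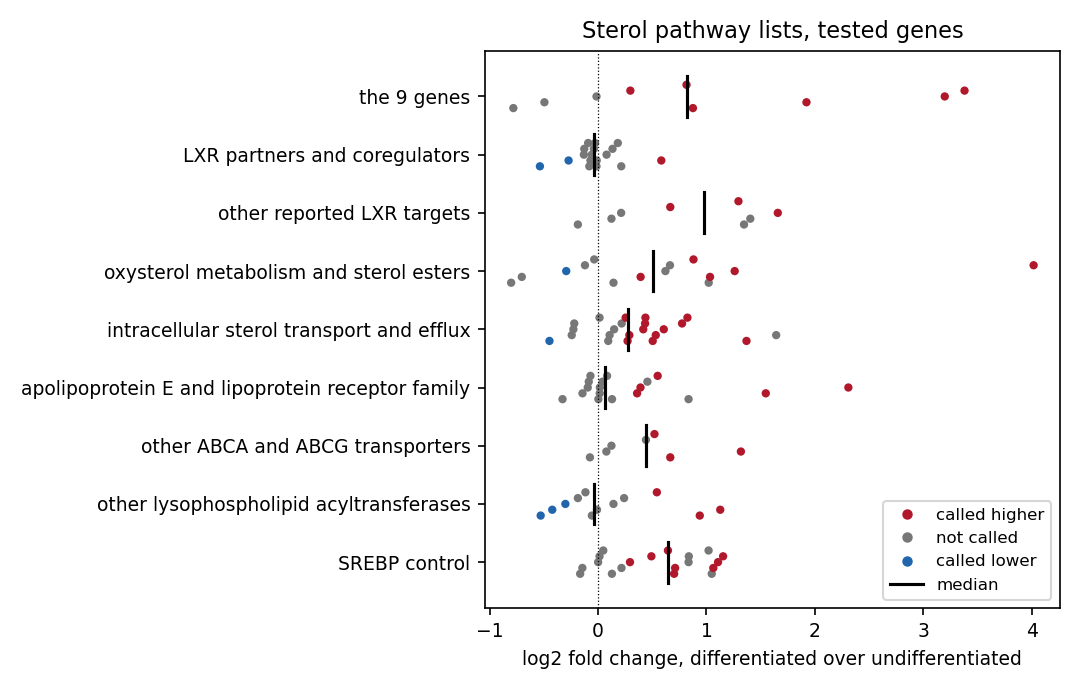
Log2 fold change, differentiated over undifferentiated, on the x axis for each tested gene of the 9 and of 8 lists of related genes on the y axis. Each point is a gene, colored by its call, offset vertically only for legibility, and the black bar is the median. The points of the LXR partners sit near 0 (median -0.04), while the other LXR targets have a median of 0.98 from 8 tested genes.

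Genes of intracellular sterol transport and efflux were called higher more often than lower. Of 23 listed, 22 had a row and were tested, 12 were called higher and 1 lower (median log2 fold change 0.28), against 18.2% and 17.7% of all genes. Prom1, a cholesterol-binding membrane protein gene, rose 2.58-fold (2.12 to 3.15), and Scarb1, the receptor for high-density lipoprotein, 1.71-fold (1.48 to 1.97). Gramd1b and Gramd1a, which carry plasma membrane cholesterol to the endoplasmic reticulum, rose 1.77-fold (1.55 to 2.02) and 1.52-fold (1.26 to 1.84). Npc1, the lysosomal cholesterol exporter gene, rose 1.21-fold (1.06 to 1.37), while Osbpl9 and Osbpl6 stood at 1.01-fold (0.881 to 1.16) and 1.16-fold (0.987 to 1.37), not called.

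A minority of the receptor genes for apolipoprotein E rose. Of 21 listed genes of this family and its handling, 20 had a row and 18 were tested (median log2 fold change 0.06). Of the 18, 5 were called higher (27.8%) and 0 lower, against 18.2% and 17.7% of all genes tested. At an unadjusted p under 0.05 in the authors' Wald test, 0 were lower. Lrp8, a target of Mylip, was at 0.942-fold (0.795 to 1.12), not called, and Vldlr had no row. Lrp4 rose 2.92-fold (1.40 to 6.12), Lrp10 1.31-fold (1.15 to 1.49) and the receptor chaperone gene Lrpap1 1.28-fold (1.13 to 1.46). In the authors' deposited table another called gene, Lrp1b, averaged 26.6 normalized counts, and it is named after its value was seen.

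The genes of oxysterol metabolism and sterol esters were mixed. Of 17 listed, 15 had a row and 14 were tested, of which 5 were called higher and 1 lower (median log2 fold change 0.51). That was 35.7% and 7.14%, against 18.2% and 17.7% of all genes tested. Dhcr7 rose 2.40-fold (1.23 to 4.67) and Cyp51 2.05-fold (1.52 to 2.76), both late steps of cholesterol synthesis, and Nceh1, a cholesterol ester hydrolase gene, rose 1.31-fold (1.07 to 1.62). Ebp, a sterol isomerase gene, fell to 0.816-fold (0.705 to 0.944). Soat1, which esterifies cholesterol, was at 0.976-fold (0.746 to 1.28), not called. In the authors' deposited table the other genes called higher, Soat2 and Cyp7b1, averaged only 66.8 and 2.80 normalized counts. They are named after their values were seen.

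The other lysophospholipid acyltransferase genes moved in both directions. Of 14 listed, 12 had a row and were tested, 3 were called higher and 3 lower (median log2 fold change -0.03). That was 25% in each direction, against 18.2% higher and 17.7% lower of all genes tested. Agpat4 rose 2.18-fold (1.85 to 2.58), Mboat2 1.92-fold (1.53 to 2.41) and Agpat2 1.46-fold (1.19 to 1.78). Lpcat1, which acts on surfactant-type lipids, fell to 0.693-fold (0.598 to 0.803), as did Mboat1 and Agpat5, both named after their values were seen.

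Of 19 genes of SREBP control, all had a row and were tested (median log2 fold change 0.64). Of the 19, 8 were called higher (42.1%) and 0 lower, against 18.2% and 17.7% of all genes tested. At an unadjusted p under 0.05 in the authors' Wald test, 0 were lower. Srebf2, the paralog of Srebf1 that drives cholesterol synthesis, rose by 0.64 on the log2 scale (SE 0.18, the authors' deposited table), with an interval that overlaps that of Srebf1. Its targets Lss, Hmgcs1 and Sqle rose 2.22-fold (1.29 to 3.84), 2.15-fold (1.24 to 3.75) and 2.09-fold (1.62 to 2.69), and Insig2, which retains the SREBP precursor, 1.64-fold (1.36 to 1.97). Abca1 thus rose in the same comparison as genes of sterol synthesis. The interval of its fold lies above those of Srebf2, Lss, Hmgcs1, Sqle and Insig2. Whether they rose in the same cells was not tested.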

How the data were processed

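RNA of CAD cells was sequenced as 3 differentiated and 3 undifferentiated stranded libraries, per the labels. The submitters' processing notes name FastQC 0.11.5, Trimmomatic 0.36, STAR 2.5.1a, DESeq2 and build GRCm38.p6. In the sources used here the counter and annotation are not given. The authors' deposited signal is a mean normalized count per gene, whose sum over genes is 38846803, and depth per library was not analysed here. The authors' deposited log2 fold change and standard error, their Wald score and their p-value and adjusted p-value were used without a refit. The score equals fold change over standard error (largest difference 1.24e-13), and the adjusted p-value a Benjamini-Hochberg adjustment over 20285 genes (largest difference 1.44e-15). The median standard error was 0.13 (log2) where the mean reached 100 and 0.66 below it. Symbols come from the table or, where blank, from GENCODE M21, which matched 26311 IDs. Calls use an adjusted p under 0.05 and 95% intervals a normal quantile. Calculations were done in Python 3.11.15 with pandas 2.3.3, scipy 1.17.1 and statsmodels 0.14.6, and tested on simulated data.

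The 9 genes and all lists were chosen with earlier results of these data known. Some genes belong to 2 lists. Besides the 9, the text names from each list up to 4 called genes of largest change with a mean of at least 100, up to 2 uncalled genes of highest mean, a fixed set (Rxra, Rxrb, Vldlr, Lrp8, Srebf2, Npc1) and chromosomal neighbours. Some genes that this rule names are not reported here. No gene is named for a similar pattern, since there is 1 comparison.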

Additional observations from a re-analysis of the deposited data

How the results depend on the processing

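Under 9 alternatives, the 6 genes called higher among the 9 stayed called except Nr1h2, which lost its call at the 0.01 threshold and where at least 1.5-fold was required (log2 fold change 0.30). The count of 6 otherwise changed only where the alternative removed genes with a mean under 100. Centring subtracted 0.0084 (median protein-coding gene) or -0.02 (implied totals) from every log2 fold change, so the second raised them.

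Counts that moved by over 1.5 times were these. At an adjusted p under 0.01, LXR partners had 1 lower, other LXR targets 1 higher, oxysterol genes 1 higher and 0 lower, the lipoprotein receptor family 3 higher, acyltransferases 1 lower and SREBP control 5 higher. With at least 1.5-fold required, LXR partners had 0 higher and 0 lower, oxysterol genes 0 lower, sterol transport 4 higher and 0 lower, the lipoprotein receptor family 2 higher and acyltransferases 0 lower. With only means of 100 or more kept, oxysterol genes had 3 higher. Adjusted over every gene with a p-value, they had 3 higher and acyltransferases 1 lower. Centred on the implied totals, LXR partners had 2 higher and acyltransferases 1 lower. With the mean expression trend removed, LXR partners had 2 higher and oxysterol genes 3 higher. The cause was not tested, except that a stricter threshold can only remove calls and a minimum mean removes genes. No sign was reversed among called genes.

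Fits without single libraries, and a count model in edgeR, need library values and were not run. No paired analysis was possible because the table holds no library values. Whether the labels' sample numbers mark matched sets was not tested. Depth limits Abcg1, Nr1h3 and Apoe most, with means under 100.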
